A study of Mus musculus with 15 samples.

Results

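Liver RNA of mice that drank fructose with potassium sorbate was compared with liver RNA of mice that drank fructose with sodium benzoate. The comparison covers 6 of the 15 arrays in the series, the 3 labelled fructose_sorbate and the 3 labelled fructose-benzoate, and all 22206 probe sets that are not controls. All mice were C57BL/6 and carried a human gut microbiota. The fructose–sorbate mice took 19 mg of potassium sorbate and the fructose–benzoate mice 4.8 mg of sodium benzoate per kg of body weight per day, each with 10% fructose in the drinking water for 11 weeks from the age of 3 weeks. The other groups, with 3 arrays each, drank fructose with sodium nitrite, fructose alone or water. Since the doses differ, compound and dose cannot be told apart. Each array holds the liver of a separate mouse out of 8 per group in the study. The methods state that both sexes were used in equal number, but which sex each array holds is stated nowhere in the labels. The labels give an age of 11 weeks, whereas the methods place the end of treatment at 14 weeks. Clariom S arrays measure a transcript through several short probes, and every value below is a log2 signal, so that a difference of 1 is a fold change of 2.

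The liver is a main site of cholesterol synthesis, which builds acetyl-CoA into mevalonate, squalene and lanosterol before the final sterol steps. The genes of this route are switched on together by SREBP2, a membrane-bound transcription factor that the escort protein SCAP carries to the Golgi when sterols are scarce, whereas the INSIG proteins hold the complex back when sterols are plentiful. PPARα, a nuclear receptor for fatty acids, drives fatty acid oxidation in mitochondria and peroxisomes and the ω-hydroxylases of the Cyp4a family. Sorbic acid is a short unsaturated fatty acid that the liver oxidises like other fatty acids. Benzoic acid is activated to its CoA ester in liver mitochondria and joined to glycine, and the product, hippurate, leaves in the urine. Many mouse liver genes also differ between the sexes, in part through the sex-specific rhythm of growth hormone.

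The fructose–benzoate arrays were not alike. The mean of the Y-linked genes Eif2s3y, Kdm5d and Uty was 3.93, 4.17 and 3.39 on the sorbate arrays, against 10.00, 3.57 and 3.51 on the benzoate arrays. Thus benzoate array 1 carried a Y-linked signal, and the other benzoate arrays and the sorbate arrays did not. Of the other Y-linked genes, Usp9y, Zfy1 and Zfy2 were not well above background on any of the 6 arrays, and Sry had 6.50, 6.85 and 7.33 with sorbate, against 6.79, 7.48 and 6.37 with benzoate. The Y-linked mean lay between 9.37 and 9.70 with nitrite, 9.69 and 10.00 with fructose alone, and 9.45 and 9.98 with water. Benzoate array 1 correlated with the other arrays of its group at 0.973 to 0.974, and these with each other at 0.989, while the sorbate arrays correlated at 0.985 to 0.986. The main results are therefore given with and without benzoate array 1. Over all 9 arrays of nitrite, fructose and water the Y-linked signal was high, so that the effect of sorbate relative to fructose alone and the Y-linked signal cannot be told apart, and values relative to fructose are given below as levels only.

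**Figure D1:**
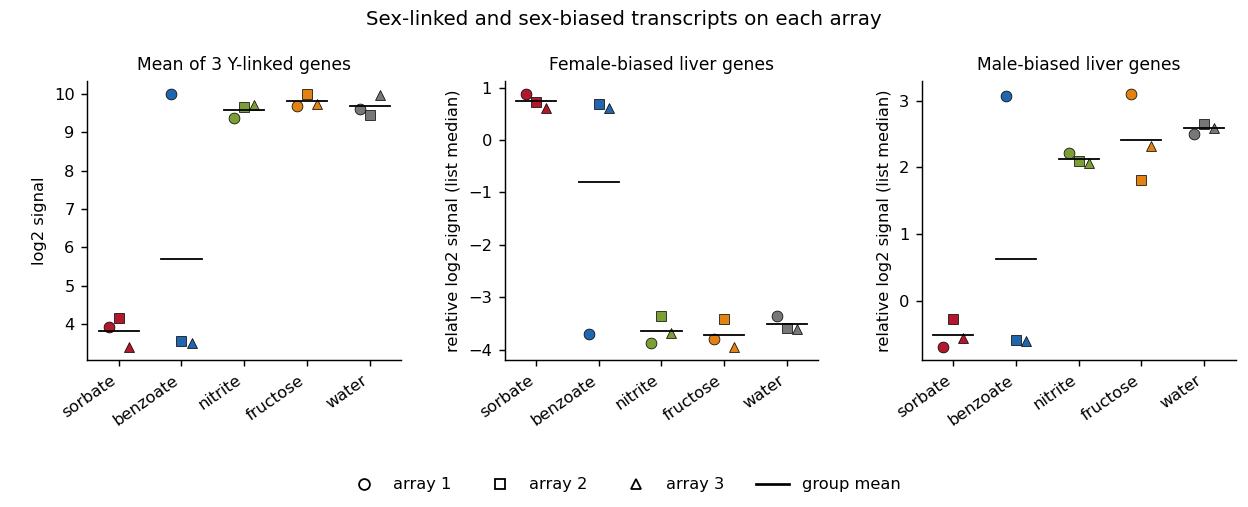
Y-linked, female-biased and male-biased transcripts on each of the 15 arrays. Left, the y axis is the mean log2 signal of 3 Y-linked genes; middle and right, it is the median over the list after each gene was set to 0 at the mean of the 6 sorbate and benzoate arrays; marker shapes are arrays 1 to 3 and black lines are group means. Benzoate array 1 (10.00) lies apart from the other benzoate arrays (3.57 and 3.51).

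No probe set differed between sorbate and benzoate after adjustment. limma with the Benjamini-Hochberg false discovery rate (FDR) called 0 of 22206 probe sets (0%) at an FDR under 0.05, with or without benzoate array 1. An unadjusted p under 0.05 was reached by 767 with all arrays (1.83% of all probe sets higher, 1.62% lower) and by 743 without benzoate array 1 (1.71% higher, 1.63% lower), fewer in each fit than this threshold calls on average when nothing has changed. The median absolute difference was 0.177, against a median SE of 0.282. Between fructose groups the study's results text gives a p-value under 0.05 and a fold change over 2, whereas its methods and figure legend give an FDR. By the looser rule, an unadjusted p under 0.05 and a fold change over 2, 56 probe sets were higher (0.252%) and 33 lower (0.149%) with sorbate. Without benzoate array 1, 56 were higher (0.252%) and 51 lower (0.23%). The fits shared 34 of these, which is 38.2% of the first set and 31.8% of the second. With all arrays, 14 of the 89 probe sets were under the background of the negative control probes in both groups, and without benzoate array 1, 35 of 107 were. In the following, "passed" refers to this unadjusted rule, and no such difference passed the FDR. Errors are SE, and ranges in brackets beside a difference are 95% intervals of the limma fit on the log2 scale, not adjusted for the number of genes. A signal under the negative control median of its array is called not well above background, and a gene is given no exact fold where this holds on every array of a group.

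**Figure D2:**
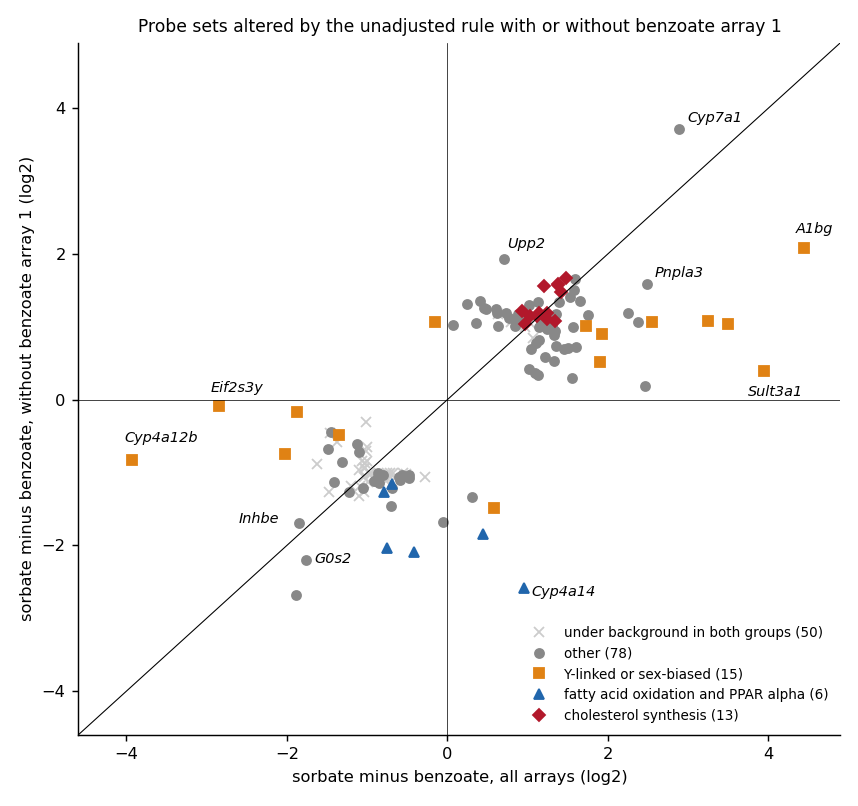
Differences between sorbate and benzoate (log2) with all arrays (x axis) and without benzoate array 1 (y axis) for the 162 probe sets that passed the unadjusted rule in either fit. Symbols mark gene groups with their number in brackets, and the diagonal marks equal values. The 13 cholesterol synthesis genes lie near the diagonal, A1bg and Sult3a1 lie to its right, and Cyp4a14 changes sign.

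Genes of cholesterol synthesis were higher with sorbate than with benzoate. Of 25 genes listed, 20 were measured by name, and all 20 had a positive difference. The rule was passed by 11 of them upward and 0 downward, beside 0.252% and 0.149% of all probe sets, and none had an FDR under 0.05. The median difference was 1.07 with all arrays and 1.12 without benzoate array 1, against 0.0027 over all probe sets. Without benzoate array 1, 12 passed upward and 0 downward, as Cyp51 and Msmo1 came in and Hmgcs1 fell out. The sorbate and benzoate arrays did not overlap for 17 of the 20 genes, beside 4.7% of all probe sets that lay higher without overlap. Without benzoate array 1 this held for 18 of 20, beside 10.2%. The list was drawn up with earlier results of these data known.

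The early steps lead from acetyl-CoA to the isoprenoid units. Hmgcs1, which forms HMG-CoA in the cytosol, had 17.10, 17.39 and 16.91 with sorbate, against 15.26, 16.40 and 15.71 with benzoate. Its difference was 1.34 ± 0.47 (2.54-fold, interval 0.35 to 2.34), and 1.08 (−0.01 to 2.17) without benzoate array 1. Every sorbate array lay above every benzoate array, but on the smaller set the interval reached 0. Mvd, the decarboxylase that makes isopentenyl diphosphate, had 9.93, 10.16 and 8.89 with sorbate and 8.38, 8.39 and 7.98 with benzoate (1.41 ± 0.38, 2.66-fold, 0.61 to 2.22). Idi1, which isomerises isopentenyl diphosphate, had 13.50, 14.35 and 13.89 with sorbate and 12.58, 12.83 and 12.61 with benzoate (1.24 ± 0.27, 2.36-fold, 0.67 to 1.81). Benzoate array 1 had the lowest Idi1 signal of the 6, close to the other benzoate arrays, and the difference was 1.19 without it. Pmvk, the phosphomevalonate kinase, differed by 1.12. Mvk, the mevalonate kinase, differed by 0.68 (0.07 to 1.29) and Fdps, which makes farnesyl diphosphate, by 1.20 (0.08 to 2.33), and only Fdps and Pmvk of these 3 passed.

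The squalene and sterol steps showed the same order. Sqle, the epoxidase that commits squalene to sterols, had 10.59, 10.32 and 10.52 with sorbate, against 9.38, 8.89 and 8.72 with benzoate. The lowest sorbate value was almost 1 unit above the highest benzoate value, and the difference was 1.48 ± 0.48 (2.78-fold, 0.48 to 2.48). Lss, which closes the rings to lanosterol, had 13.01, 12.74 and 12.28 with sorbate and 11.71, 11.37 and 10.81 with benzoate (1.38 ± 0.38, 2.60-fold, 0.57 to 2.19). Fdft1, the squalene synthase, had 13.00, 13.23 and 12.72 with sorbate and 11.48, 11.75 and 12.00 with benzoate (2.36-fold, 0.50 to 1.98). Dhcr7, the enzyme of the last reduction to cholesterol, had 12.15, 12.32 and 11.94 with sorbate, against 11.14, 10.62 and 10.51 with benzoate (2.61-fold, 0.42 to 2.35). For Sqle, Lss and Dhcr7 the groups stood further apart without benzoate array 1, at 1.67, 1.59 and 1.58. Between lanosterol and the end product, Nsdhl differed by 1.03 and passed, whereas Cyp51 (0.96), Msmo1 (0.93), Hsd17b7 (0.68), Ebp (0.51) and Sc5d (0.49) did not reach a fold change of 2.

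**Figure D3:**
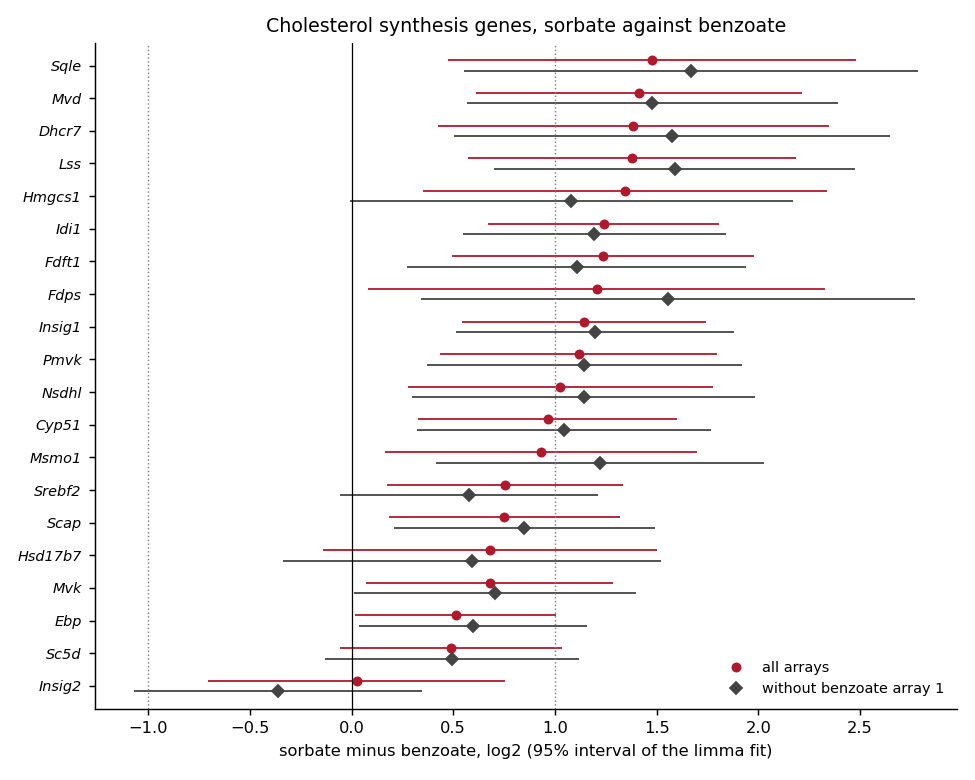
Difference between sorbate and benzoate (log2, x axis) for the 20 cholesterol synthesis genes measured by name. Circles are the fit with all arrays and diamonds the fit without benzoate array 1, bars are 95% intervals of the limma fit, and dotted lines mark a fold change of 2. All genes but Insig2 lie right of 0 in both fits, with Sqle the highest at 1.48.

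The regulators of the route were measured as well. Insig1, which retains the SREBP2 complex and is itself a target of it, had 16.41, 16.15 and 15.70 with sorbate, against 15.05, 15.24 and 14.54 with benzoate. The groups did not overlap, and the difference was 1.14 ± 0.29 (2.21-fold, 0.54 to 1.74), or 1.20 without benzoate array 1. Srebf2, the gene of SREBP2, and Scap were each higher by 0.75, under a fold change of 2, with intervals of 0.17 to 1.33 and 0.18 to 1.32. Insig2, the second retention protein, had 11.58, 12.22 and 11.88 with sorbate and 11.10, 12.45 and 12.06 with benzoate. Its values overlapped and its difference of 0.02 turned to −0.36 without benzoate array 1.

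Set to 0 at the mean of the 6 arrays, the median level of the 20 genes was 0.45, 0.76 and 0.25 on the sorbate arrays, against −0.34, −0.49 and −0.66 on the benzoate arrays. Benzoate array 1 thus stood with the other benzoate arrays here, unlike in its Y-linked signal. On the same scale the level averaged 0.49 ± 0.26 with sorbate, −0.50 ± 0.16 with benzoate, −0.50 ± 0.53 with nitrite, −0.09 ± 0.44 with fructose alone and 0.07 ± 0.46 with water (SD, n = 3 each). By its mean, fructose alone lay between sorbate and benzoate. Its arrays stood at −0.60, 0.18 and 0.14, so that fructose array 1 lay below benzoate arrays 1 and 2. The median of the 20 differences from fructose alone was 0.53 with sorbate and −0.41 with benzoate, and these share the fructose arrays. For Idi1, sorbate stood at −0.09 and benzoate at −1.33 relative to fructose alone, while for Lss sorbate stood at 1.02 and benzoate at −0.36.

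SREBP2 acts on sterol response elements together with NF-Y, a factor that binds the letters CCAAT, so the promoters of the genes above were read. The sequences run from 250 bases before to 50 after the RefSeq start (GRCm38.p6) and are shown 5′ to 3′ for 4 genes that stand for the early, middle, late and regulatory steps. Capitals mark CCAAT on either strand (ATTGG on the printed strand) and TCACNCCAC, a sterol response element pattern. They lie at chr13:119690101-119690400 (Hmgcs1), chr13:8885356-8885655 (Idi1), chr10:76531355-76531654 (Lss) and chr5:28071162-28071461 (Insig1), all on the + strand.
Hmgcs1: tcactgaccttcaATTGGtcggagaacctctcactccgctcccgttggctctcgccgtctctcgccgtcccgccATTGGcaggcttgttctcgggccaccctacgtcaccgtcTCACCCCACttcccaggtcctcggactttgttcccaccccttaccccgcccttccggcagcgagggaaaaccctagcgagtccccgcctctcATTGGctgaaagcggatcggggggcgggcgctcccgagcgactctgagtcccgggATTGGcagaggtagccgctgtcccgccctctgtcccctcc
Idi1: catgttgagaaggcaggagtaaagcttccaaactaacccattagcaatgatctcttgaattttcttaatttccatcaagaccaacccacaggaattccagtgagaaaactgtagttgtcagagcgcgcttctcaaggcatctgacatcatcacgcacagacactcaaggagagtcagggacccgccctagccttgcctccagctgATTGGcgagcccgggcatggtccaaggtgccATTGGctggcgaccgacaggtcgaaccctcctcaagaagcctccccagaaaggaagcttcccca
Lss: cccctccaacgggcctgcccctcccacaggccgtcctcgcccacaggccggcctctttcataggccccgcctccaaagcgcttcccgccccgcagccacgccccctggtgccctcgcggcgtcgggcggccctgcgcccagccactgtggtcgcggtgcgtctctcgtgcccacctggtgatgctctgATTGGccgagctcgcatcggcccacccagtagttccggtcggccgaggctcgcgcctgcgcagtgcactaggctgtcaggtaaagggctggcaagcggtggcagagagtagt
Insig1: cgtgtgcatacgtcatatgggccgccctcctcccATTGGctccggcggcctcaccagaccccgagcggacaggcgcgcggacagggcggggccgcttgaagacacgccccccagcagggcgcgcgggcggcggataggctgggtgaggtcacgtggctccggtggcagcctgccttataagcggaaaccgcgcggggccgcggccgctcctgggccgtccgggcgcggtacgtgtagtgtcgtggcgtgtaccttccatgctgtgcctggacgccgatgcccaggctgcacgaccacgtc

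Of the 20 genes, 17 had a promoter in the table. CCAAT on either strand was present in 16 of the 17, against 41.06% of 27025 genes with a promoter. The longer CCAATCAG, which contains CCAAT, was present in 5 of 17, against 4.7%. TCACNCCAC occurred in 1 of 17, the Hmgcs1 promoter, 137 bases before the start, against 1.44%. The shorter CACNCCA, contained in it, occurred in 5 of 17, against 20.56%. The PPARα pattern, AGGTCA repeated after 1 free base and searched on both strands, occurred in 0 of 17 and in 0 of the 25 promoters found for the 31 fatty acid oxidation and PPARα genes below, against 0.05% of all genes. In all, 9 patterns were searched, chosen with the expression results known, and a match describes the letters only.

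In the list of de novo lipogenesis, Acss2 and Pnpla3 passed upward in both fits, that is 2 of 16 measured genes, and 0 passed downward, beside 0.252% and 0.149% of all probe sets. The median difference was 0.45 with 2 of 16 negative, or 0.22 with 6 of 16 negative without benzoate array 1. Acss2, which turns acetate into acetyl-CoA, had 14.54, 14.42 and 14.32 with sorbate, against 12.71, 13.41 and 12.42 with benzoate. The difference was 1.58 ± 0.62 (2.99-fold, 0.28 to 2.89), and 1.51 (0.03 to 2.99) without benzoate array 1. The sorbate arrays lay close together and above every benzoate array. Pnpla3, a lipid droplet hydrolase and transacylase that carbohydrate feeding induces, had 11.41, 9.30 and 10.17 with sorbate and 6.01, 9.23 and 8.19 with benzoate. The lowest sorbate value, 9.30, was just above the highest benzoate value, 9.23, benzoate array 1 was not well above background, and the difference was 2.49 ± 0.78 (5.61-fold, 0.85 to 4.12) or 1.59 (0.03 to 3.14) without that array. Fasn, the fatty acid synthase, differed by 1.29 (−0.60 to 3.17), or by 0.96 without benzoate array 1, with overlapping groups. Scd1, the stearoyl-CoA desaturase, had a difference of −0.02 (−0.92 to 0.88), and of −0.03 without benzoate array 1.

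Cyp7a1, the rate-limiting enzyme of bile acid synthesis from cholesterol, had the largest difference without benzoate array 1 among the genes named by rule. It had 15.80, 15.75 and 13.90 with sorbate, against 13.91, 12.32 and 10.55 with benzoate. The third sorbate array met benzoate array 1, and the other values were separate. The difference was 2.89 ± 0.76 (7.40-fold, 1.29 to 4.48) with all arrays and 3.71 (13.1-fold, 2.16 to 5.26) without benzoate array 1. Cyp7a1 averaged 15.95 with fructose alone, 11.70 with nitrite and 14.31 with water, so that sorbate stood at −0.80 and benzoate at −3.69 relative to fructose alone. It was the only one of 18 measured bile acid genes to pass, beside 0.252% of all probe sets higher and 0.149% lower. The median of the list was 0.03, or 0.13 without benzoate array 1. Cyp8b1, which sets the share of cholic acid, differed by 0.92 (−0.17 to 2.01), or by 0.73 without benzoate array 1. Rdh11, a retinal reductase that is a known SREBP target, had 12.56, 12.44 and 12.27 with sorbate and 10.93, 11.20 and 10.95 with benzoate (1.4 ± 0.51, 2.63-fold, 0.33 to 2.47), and passed without benzoate array 1 as well (1.35, 0.13 to 2.56). Aqp8, a water channel of the hepatocyte, had 13.31, 13.08 and 12.96 with sorbate and 10.86, 12.18 and 11.35 with benzoate (3.14-fold, 0.28 to 3.03), but its 1.35 without benzoate array 1 did not pass (−0.17 to 2.87).

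**Figure D4:**
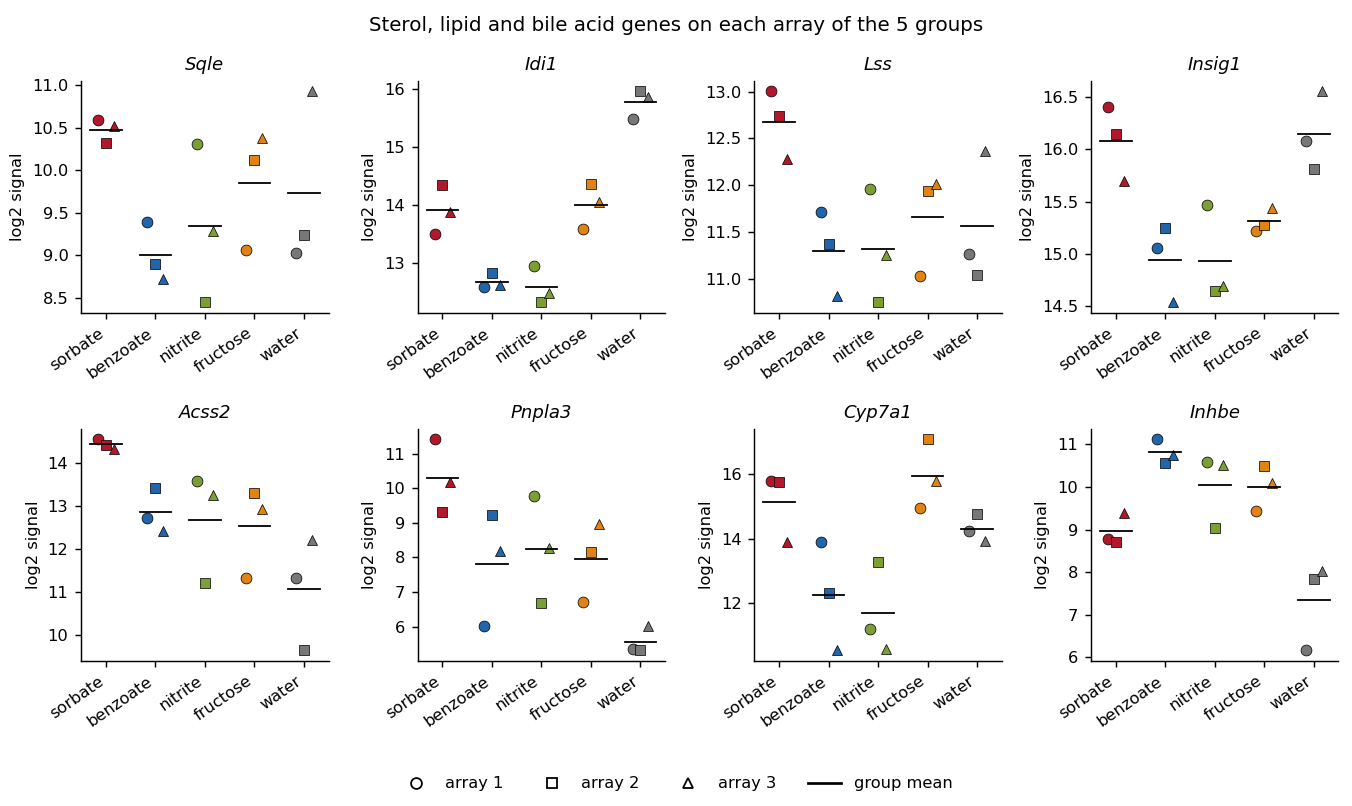
Log2 signals of 8 genes (y axes) on each array of the 5 groups (x axes). Marker shapes are arrays 1 to 3 and black lines are group means; sorbate lies above benzoate on every array for Sqle, Idi1, Lss, Insig1, Acss2 and Pnpla3, touches it for Cyp7a1 (13.90 against 13.91), and lies below it for Inhbe.

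For genes of fatty acid oxidation and PPARα, the result rested on benzoate array 1. Of 34 genes listed, 31 were measured by name. With all arrays, 0 passed in either direction in limma, and the median difference was −0.19. At any fold, 0 upward and 3 downward had an unadjusted p under 0.05, beside 1.83% and 1.62% of all probe sets. Without benzoate array 1, 6 passed downward and 0 upward, beside 0.23% and 0.252% of all probe sets, and the median was −0.54. The groups were separate and sorbate lower for 5 of 31 with all arrays (3.91% of all probe sets) and for 19 without benzoate array 1 (9.12%).

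The ω-hydroxylase Cyp4a14 had 14.55, 14.83 and 13.62 with sorbate, against 6.30, 16.08 and 17.77 with benzoate. Benzoate array 1 was the lowest and the other benzoate arrays were the highest of the 6. The difference was 0.95 (−3.03 to 4.94) with all arrays and −2.59 (6.01-fold lower, −4.72 to −0.46) without benzoate array 1. Cyp4a10 had 14.21, 14.43 and 13.42 with sorbate and 8.98, 15.15 and 16.59 with benzoate (0.45, or −1.85 without benzoate array 1). Cyp4a31 had 8.16, 8.86 and 8.17 with sorbate and 5.46, 10.13 and 10.85 with benzoate (−0.41, or −2.09), where 5.46 was not well above background. Cyp4a32 differed by −0.06, or by −1.68 without benzoate array 1. These genes are near-identical copies, so their probes may not separate them. Vnn1, a pantetheinase induced through PPARα, had 8.87, 9.0 and 8.46 with sorbate and 6.95, 10.29 and 11.33 with benzoate. Its difference was −0.75 (−2.30 to 0.81) with all arrays, and −2.04 (4.10-fold lower, −3.04 to −1.03) without benzoate array 1.

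Plin2, which coats lipid droplets, had 13.81, 14.33 and 13.98 with sorbate and 13.89, 15.01 and 15.60 with benzoate. Benzoate array 1 fell among the sorbate arrays, and the difference was −0.79 (−1.60 to 0.01), or −1.26 (2.40-fold lower, −2.01 to −0.52) without it. Acot1, a cytosolic thioesterase of acyl-CoA, was another of the 6, with −1.15 without benzoate array 1. Some genes of this paragraph and the last are not on the list, so those named do not add up to the 6. Creb3l3, a liver transcription factor of fasting, was lower in both fits, with 11.87, 12.41 and 12.77 under sorbate and 13.58, 12.98 and 13.33 under benzoate (−0.95 ± 0.27, −1.52 to −0.37, under a fold change of 2, and −0.81 without benzoate array 1). Outside the list, Crat, the carnitine acetyltransferase, had 9.21, 9.26 and 9.71 with sorbate and 8.60, 10.68 and 11.02 with benzoate, and passed only without benzoate array 1 (−1.46, −2.37 to −0.55). The female-biased thioesterase Acot3 showed the same order, with 13.20, 12.85 and 11.78 under sorbate and 7.90, 13.26 and 14.93 under benzoate, and a difference of 0.58, or −1.49 without benzoate array 1. Upp2, a uridine phosphorylase, went the other way: it had 15.14, 14.76 and 15.24 with sorbate and 16.81, 12.70 and 13.53 with benzoate (0.70, or 1.93 without benzoate array 1). For all genes of this paragraph and the last but Creb3l3, benzoate array 1 was on the other side of the sorbate arrays, or level with them, from the other benzoate arrays, and the part of its Y-linked signal in this was not tested.

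**Figure D5:**
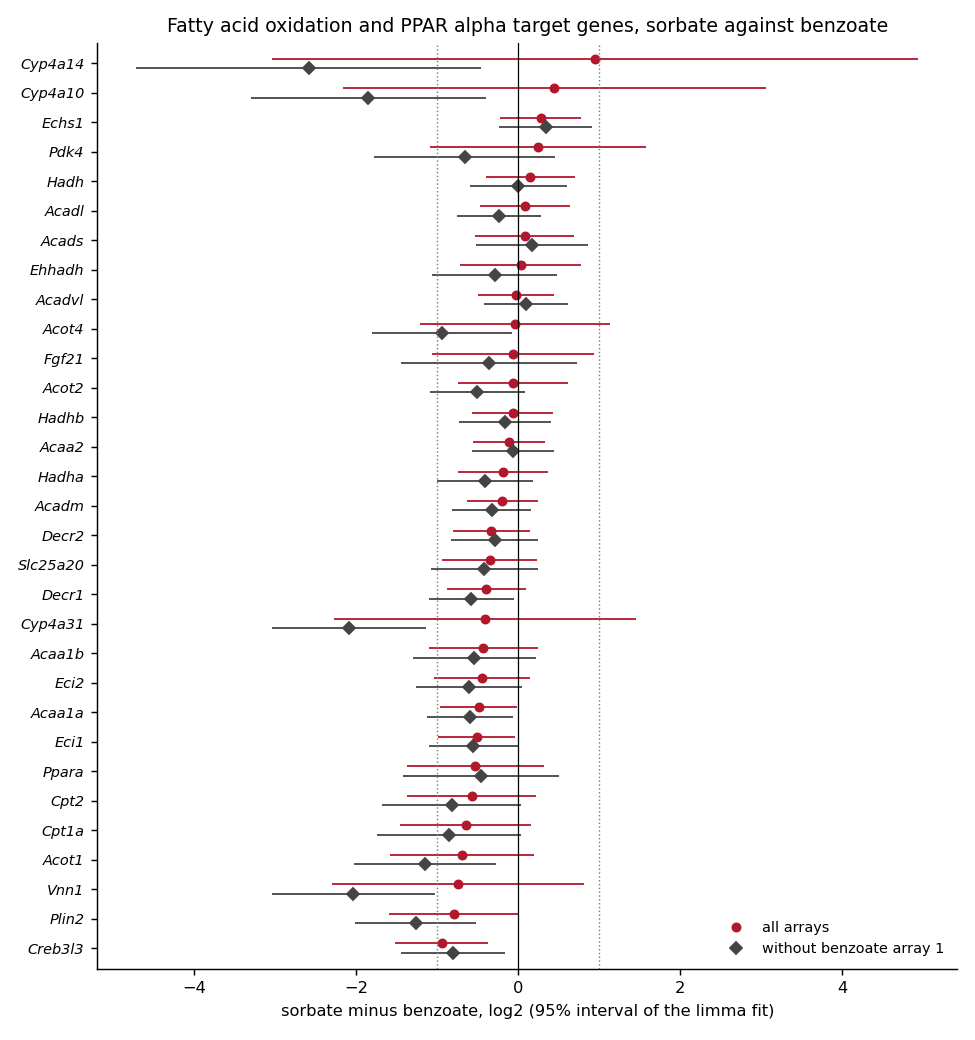
Difference between sorbate and benzoate (log2, x axis) for the 31 fatty acid oxidation and PPARα genes measured by name. Circles are the fit with all arrays and diamonds the fit without benzoate array 1, and bars are 95% intervals of the limma fit; Cyp4a14 is at 0.95 with all arrays and at −2.59 without benzoate array 1.

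Several metabolic genes were lower with sorbate than with benzoate in both fits. Inhbe, a hepatokine of the activin family, had 8.77, 8.72 and 9.40 with sorbate, against 11.12, 10.57 and 10.75 with benzoate. The groups were over 1 unit apart, with a difference of −1.85 ± 0.46 (3.61-fold lower, −2.81 to −0.89), or −1.70 (−2.77 to −0.62) without benzoate array 1. G0s2, which inhibits the triglyceride lipase ATGL, had 5.78, 6.55 and 5.93 with sorbate and 6.99, 8.28 and 8.29 with benzoate. Since 2 of the 3 sorbate arrays were not well above background, its differences of −1.76 (−2.78 to −0.75) and −2.20 without benzoate array 1 rest on low signals. Slc25a47, a mitochondrial carrier of the liver, had 12.86, 13.44 and 13.90 with sorbate, against 15.37, 14.51 and 14.54 with benzoate (−1.41 ± 0.33, 2.66-fold lower, −2.10 to −0.72), and −1.13 without benzoate array 1. Pex11a, which takes part in the division of peroxisomes, had 9.20, 10.02 and 10.07 with sorbate and 10.91, 11.04 and 11.01 with benzoate (−1.22 ± 0.39, 2.33-fold lower, −2.03 to −0.41), and −1.26 without benzoate array 1. All these genes were separate between the groups. Scp2, the sterol carrier protein with a peroxisomal thiolase form, had 15.90, 16.37 and 16.72 with sorbate and 18.57, 17.06 and 17.31 with benzoate. Benzoate array 1 was the highest, and the difference of −1.32 (2.49-fold lower, −2.02 to −0.61) was −0.85 without it, under a fold change of 2. Ak4, a mitochondrial adenylate kinase, likewise differed by −1.10, or −0.71 without benzoate array 1. With fructose alone the means were 10.00 for Inhbe, 7.12 for G0s2, 13.40 for Slc25a47, 11.185 for Pex11a, 18.56 for Scp2 and 10.24 for Ak4. The sorbate means of Slc25a47 (13.40) and Ak4 (10.29) were thus level with fructose alone, and those of the other genes were lower. Obp2a and Syn1 were among the 10 largest falls by rule, but neither was well above background on any sorbate array, so no fold is given.

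Sex-biased transcripts differed between sorbate and benzoate mainly through benzoate array 1. The median level of 30 measured female-biased genes was 0.88, 0.73 and 0.62 on the sorbate arrays, against −3.71, 0.68 and 0.61 on the benzoate arrays. The median difference was 1.68 with all arrays, with 8 passing upward and 0 downward, beside 0.252% and 0.149% of all probe sets. The median without benzoate array 1 was 0.04, with 2 upward (A1bg and Ntrk2) and 1 downward (Acot3), beside 0.252% and 0.23%. The median level of 22 male-biased genes was −0.70, −0.28 and −0.56 with sorbate, against 3.06, −0.59 and −0.61 with benzoate. Their median difference was −1.06, with 0 passing upward and 4 downward, beside 0.252% and 0.149% of all probe sets. Without benzoate array 1 it was 0.13, with 1 upward (Cyp2u1) and 0 downward, beside 0.252% and 0.23%. The sulfotransferase Sult3a1 had 15.84, 16.33 and 15.15 with sorbate and 4.72, 15.85 and 14.90 with benzoate, and its difference of 3.95 was 0.40 without benzoate array 1, whose value was not well above background. Cyp3a41a (3.50, or 1.04), Sult3a2 (3.25, or 1.08), Cyp3a16 (2.55, or 1.07) and Hao2 (1.90, or 0.51) had the same order. Cyp2b9, a female-biased hydroxylase, had 18.07, 18.19 and 18.23 with sorbate and 4.8, 18.46 and 18.59 with benzoate, and its difference of 4.22 (−0.38 to 8.81) was −0.36 without benzoate array 1, again not well above background there. Sult3a2 and Hao2 were not well above background on that array either. Among the male-biased genes, the hydroxylase Cyp4a12b had 5.20, 4.76 and 5.17 with sorbate, none well above background, against 15.17, 5.24 and 6.52 with benzoate, where 5.24 was not well above background. Its measured difference was −3.93 (−7.10 to −0.76), and it was at least 5.99-fold lower with each sorbate array set at its background, which rested on benzoate array 1. Cyp2d9, a steroid hydroxylase, differed by −2.02 (−0.74 without benzoate array 1), Gstp1, a glutathione transferase, by −1.87 (−0.17) and Mup6, a urinary protein, by −1.35 (−0.48). Eif2s3y was lower by rule as well (interval −5.67 to −0.03), through its value of 11.19 on benzoate array 1, against 3.33 and 2.49 on the other benzoate arrays and 2.39 to 3.13 with sorbate.

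A1bg, Ntrk2 and Gas6 stayed higher with sorbate without benzoate array 1. A1bg, a plasma glycoprotein made in female mouse liver, had 12.92, 12.27 and 11.73 with sorbate, against 3.15, 11.34 and 9.11 with benzoate. The value of benzoate array 1 was not well above background. The difference was 4.44 ± 1.19 (21.8-fold, 1.95 to 6.94) with all arrays and 2.08 (4.24-fold, 1.11 to 3.05) without it, and the sorbate arrays lay above the other benzoate arrays as well. Ntrk2, a neurotrophin receptor, had 8.77, 9.43 and 8.80 with sorbate and 5.83, 7.60 and 8.38 with benzoate (1.73, or 1.01 with an interval of 0.03 to 1.98 without benzoate array 1, whose value was not well above background). Gas6, a ligand of the TAM receptor kinases, had 11.19, 11.66 and 10.74 with sorbate, against 8.27, 10.43 and 9.64 with benzoate. It was the only gene of 20 measured in the fibrosis and matrix list to pass, beside 0.252% of all probe sets higher and 0.149% lower. The groups did not overlap, and the difference was 1.75 ± 0.42 (3.36-fold, 0.88 to 2.62), or 1.16 (0.42 to 1.90) without benzoate array 1. Atp6v0d2 (1.93), Sytl5 (2.38) and Lrtm1 (1.52) also passed upward with all arrays, and benzoate array 1 was not well above background for Atp6v0d2 and Sytl5. Without that array none of the 3 passed, with Lrtm1 at 1.41 (−0.14 to 2.96), Sytl5 at 1.06 (−0.16 to 2.29) and Atp6v0d2 at 0.90 (−0.29 to 2.10). Of 21 measured genes that the study had picked from these arrays, 7 passed with all arrays, beside 0.252% of all probe sets higher and 0.149% lower. Without benzoate array 1, 2 passed, Gas6 and A1bg, beside 0.252% higher and 0.23% lower. As the genes were picked from these arrays, this is not independent evidence.

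The enzymes that handle benzoate gave no difference past the rule. None of the 5 genes of benzoate activation and glycine conjugation passed in limma in either fit, and the groups overlapped for all 5. With all arrays, 1 had an unadjusted p under 0.05, downward, beside 1.62% of all probe sets, and 0 did without benzoate array 1. Glyat, the glycine N-acyltransferase, had 15.73, 16.08 and 15.84 with sorbate, against 16.70, 15.97 and 16.01 with benzoate. The difference was −0.34 (−0.85 to 0.17), and −0.11 (−0.63 to 0.41) without benzoate array 1. The acyl-CoA synthetases Acsm1, Acsm3 and Acsm5 differed by 0.13 (−0.44 to 0.70), −0.10 (−0.70 to 0.50) and −0.04 (−0.58 to 0.49). The intervals without benzoate array 1 were −0.44 to 0.86 for Acsm1, −0.67 to 0.67 for Acsm3 and −0.50 to 0.68 for Acsm5. Acsm2, another member of that family, differed by −0.57 but was not well above background on any sorbate array. The list of glycine and serine supply, with 14 of 17 measured, had a median of 0.32 with 12 of 14 positive, or 0.34 without benzoate array 1. None passed in limma in either fit. With all arrays, 1 gene upward and 1 downward had an unadjusted p under 0.05, beside 1.83% and 1.62% of all probe sets. The groups did not overlap and sorbate was higher for 4 of 14, beside 4.7% of all probe sets, and for 7 of 14 without benzoate array 1, beside 10.2%. It was lower without overlap for 1 gene in both fits, beside 3.91% of all probe sets with all arrays and 9.12% without benzoate array 1.

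In the circadian clock list, 1 of 18 measured genes passed upward and 1 downward with all arrays, beside 0.252% and 0.149% of all probe sets. Without benzoate array 1, 0 passed in limma. In that fit 0 upward and 1 downward had an unadjusted p under 0.05, beside 1.71% and 1.63%. Arntl, the core activator of the clock, had 9.47, 10.65 and 10.42 with sorbate and 6.11, 10.45 and 9.31 with benzoate (1.56, or 0.30 without benzoate array 1). Ciart, a clock repressor, had 5.23, 4.54 and 4.85 with sorbate, not well above background, and 8.33, 5.09 and 5.58 with benzoate. Dbp, a clock output gene, had 11.12, 8.95 and 9.90 with sorbate and 12.86, 9.44 and 10.90 with benzoate, and did not pass (−2.86 to 0.71, or −1.93 to 1.57 without benzoate array 1). Benzoate array 1 was lowest in Arntl and highest in Ciart and Dbp, and the hour of sampling is not given in the sources used here. Mt1, a metallothionein of the stress response, had 12.55, 13.40 and 11.60 with sorbate and 8.16, 10.78 and 11.87 with benzoate. It passed with all arrays (2.25, 0.37 to 4.13) and not without benzoate array 1 (1.20, −0.58 to 2.97), and the groups overlapped.

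No member of 26 of the 38 gene lists passed in either fit, among them inflammatory cytokines and chemokines, the interferon response, acute phase proteins, NRF2 targets, the unfolded protein response, ribosomal proteins and the respiratory chain. Of their 423 measured members, 3 were higher and 5 lower at an unadjusted limma p under 0.05 with any fold, beside 1.83% and 1.62% of all probe sets. Without benzoate array 1, 3 were higher and 4 lower, beside 1.71% and 1.63%. These lists were picked because no member passed, beside 0.252% of all probe sets higher and 0.149% lower with all arrays. That choice lowers these counts, so they are not evidence that the lists are quiet. The list medians ran from −0.59 for heat shock proteins to 0.45 for stellate cell markers, and these were −0.20 and 0.20 without benzoate array 1. The 10 hepatocyte markers summed to 22.08 to 22.28 with sorbate and 22.15 to 22.24 with benzoate, as the log2 of the summed signal. The 15 Kupffer cell and macrophage markers summed to 15.66 to 15.78 with sorbate and 14.63 to 15.85 with benzoate, and the 14 sinusoidal endothelial markers to 15.16 to 15.28 with sorbate and 14.68 to 15.35 with benzoate. The 8 stellate cell markers summed to 14.28 to 14.54 with sorbate and 13.54 to 14.45 with benzoate. The groups overlapped in each of these sums. For the Kupffer cell markers this rested on benzoate array 1 (14.63), since the other benzoate arrays, at 15.84 and 15.85, lay above the sorbate arrays. Of the 13 lymphocyte and neutrophil markers, 10 were under background on all 6 arrays. The same held for 9 of the 26 cytokine and chemokine genes, which could therefore hardly show a difference. In whole liver, fewer cells of a type and less RNA per cell cannot be told apart, and the part of cell content in the results was not tested.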

How the data were processed

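The log2 signals of 15 Clariom S mouse liver arrays were used as deposited. Per the methods, the authors computed the log2 values with SST-RMA, a rescaling followed by a robust multi-array average, run in Transcriptome Analysis Console 4.0.2, whereas the submitters' notes list Affymetrix Expression Console 1.4 beside the Transcriptome Analysis Console, and RMA. Which of these was run is not settled here. Of 28846 entries, 6640 control probes were left out and 22206 probe sets were tested, of which 19572 carry exactly 1 gene symbol. Groups came from the sample labels, which name no sex, slide or scan date. Precision is limited by the number of arrays.

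limma 3.58.1 (R 4.3.3, data.table version 1.17.8) estimated 1 mean for each group from all 15 arrays with a common spread, and was run again without benzoate array 1. p-values were adjusted over all tested probe sets, two-sided. A probe set passed where its fold change exceeded 2 with an FDR under 0.05, or with an unadjusted p under 0.05 where stated. A signal below its own array's median over 5222 negative control probes was taken as not well above background. Where this held on every array of a group, the fold was given as a bound against that median, or not at all, and where it held on some arrays only, the measured fold was kept. The rule was set with the data known. Exact two-sided permutation tests of 6 array measures gave p-values from 0.2 to 0.8, each 0.8 after adjustment, where 3 arrays against 3 allow no p under 0.1. The fit was tested on simulated data.

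Named genes are the 10 largest rises and 10 largest falls among probe sets with 1 symbol that passed without overlap of the groups, from each fit, up to 4 members of each of 38 lists, the Y-linked genes, the conjugation genes, and genes the study names. Other genes in the text were named after their values were seen. Where several probe sets name a gene, the brightest on average was used. The part of the series, the lists (727 genes, 642 measured) and the promoter patterns were chosen with earlier results of these data known. Promoter sequences are from RefSeq (GRCm38.p6). The replicates are separate mice, and no genome was used to place probe sets. Alternatives were quantile normalization, median centring, a filter on low values, only probe sets with 1 symbol, a variance trend with robust fitting, weights per array, a block for the replicate number, only the 6 arrays, only the 12 fructose arrays, covariates, and each array left out. The fit on the 5 arrays without benzoate array 1 was chosen after seeing the data.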

Additional observations from a re-analysis of the deposited data

How the results depend on the processing

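The count of probe sets past the FDR was 0 under all alternatives run. The unadjusted count of 89 (56 higher, 33 lower) was within 1.5 times of the main count under the alternatives other than leaving out an array, and ranged from 107 to 224 when each of the 6 arrays was left out, with 107 without benzoate array 1, 224 without benzoate array 2, 207 without benzoate array 3 and 168 without sorbate array 3. The replicate number as a block gave 60 higher and 40 lower. Deviations of arrays with the same number correlated at 0.03, −0.06 and 0.05. With 3 arrays a group this cannot settle whether the number pairs the mice, which the labels do not state. The cholesterol synthesis count of 11 ranged from 8 to 12 over the arrays left out.

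The PPARα count of 0 was 2 with array weights, 4 with the Y-linked mean as a covariate, 2 with the hybridization controls as a covariate and 6 on the 5 arrays, and 0 to 6 over the arrays left out. The median of the male-biased genes, −1.06, was 0.13 on the 5 arrays and −1.79 to 0.13 over the arrays left out. With array weights the sign turned for Acot3 (−0.47), Acsm5 (0.0275), Cyp4a10 (−0.70), Cyp4a14 (−0.83) and Insig2 (−0.14). With the Y-linked covariate it turned for Acot3 (−1.08), Acsm5 (0.0846), Cyp4a10 (−1.40), Cyp4a14 (−1.93), Insig2 (−0.31), Kdm5d (0.22) and Uty (0.26), and with the hybridization covariate for Cyp4a10 (−0.24). On the 5 arrays it turned for Acot3 (−1.49), Acsm5 (0.0874), Cyp2b9 (−0.36), Cyp4a10 (−1.85), Cyp4a14 (−2.59), Insig2 (−0.36), Kdm5d (0.38) and Uty (0.59). Over the arrays left out, the difference ran from −1.49 to 2.03 for Acot3, −0.12 to 0.31 for Acsm1, −0.13 to 0.0874 for Acsm5, −0.36 to 6.53 for Cyp2b9, −1.85 to 1.96 for Cyp4a10, −2.59 to 3.14 for Cyp4a14, −2.09 to 0.60 for Cyp4a31, −1.68 to 1.14 for Cyp4a32, −0.36 to 0.32 for Insig2, −1.92 to 0.38 for Kdm5d, −0.12 to 1.93 for Upp2, −2.83 to 0.59 for Uty and −2.04 to 0.16 for Vnn1. The cause of these turns was not tested. Signals near the negative controls limit the dim genes, and 3 arrays a group limit the precision of the rest.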
